A study of Mus musculus with 8 samples.

Results

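The genes described here are the 10 glycolytic enzymes and glucose transporters Slc2a1, Slc2a3, Hk1, Hk2, Pfkp, Aldoc, Pgk1, Eno2, Ldha and Ldhb. They were taken by name from 24849 rows of gene-level expression values, and each name matched 1 row. Of the 10 genes, 10 passed the filter on low values (a mean above 1 FPKM in at least 1 group), as did 13214 genes in all. FPKM counts fragments relative to transcript length and library size, so levels can be compared between genes per unit of length. Identical reads had been removed before mapping, and the effect of this on such comparisons was not tested. Poly(A) RNA was sequenced from mouse embryonic stem cells (mESCs) of the MPI-II line, strain 129S2/SvPas, either wild type or Pcgf5-/-. Day 0 cells were maintained on feeder cells in high-glucose medium with serum, pyruvate, LIF and the 2i inhibitors CHIR99021 and PD0325901, and day 6 cells had been differentiated in N2B27 medium. Each of the 4 groups (wild type day 0, wild type day 6, Pcgf5-/- day 0, Pcgf5-/- day 6) had 2 samples. The knockout was made with TALENs and donor cassettes carrying puromycin or neomycin resistance under a PGK promoter, followed by the picking of single colonies, so a clone of cells may stand for the genotype. Whether the wild type cells were subcloned as well is not given in the sources used here. PCGF5 is a subunit of a noncanonical Polycomb repressive complex 1, a histone H2A ubiquitin ligase.

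Glucose enters cells through facilitative transporters of the SLC2A (GLUT) family and is trapped by hexokinase as glucose-6-phosphate. Phosphofructokinase commits the sugar to glycolysis, aldolase splits it, phosphoglycerate kinase makes ATP, enolase forms phosphoenolpyruvate, and lactate dehydrogenase interconverts pyruvate and lactate while regenerating NAD+. Naive mESCs are known for high glycolytic activity alongside respiration, and several steps are served by isoforms whose balance changes with cell type: subunit A of lactate dehydrogenase is typical of tissues that make lactate, and subunit B of tissues that use it.

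Pcgf5 itself stood at 5.18 and 3.63 FPKM in wild type mESCs at day 0 and at 9.16 and 5.06 at day 6. The knockout samples held 1.28 and 1.84 FPKM at day 0, then 0.669 and 0.457. All knockout samples were below all wild type samples, with a log2 fold change of -2.33 at day 6 (limma, adjusted p = 0.00421) and -1.07 at day 0 (adjusted p = 0.105). Several sums of culture markers differed between genotypes at day 6, and not all of them moved with day. The 10 pluripotency markers summed were Pou5f1, Nanog, Zfp42, Esrrb, Klf4, Klf2, Tbx3, Dppa5a, Tfcp2l1 and Tdgf1. Their summed FPKM lay between 2339 and 2550 at day 0. At day 6 it was 180 to 413 in wild type cells against 1074 to 1164 in the knockout. At day 6, 8 neural progenitor markers summed to 651 to 691 in wild type and to 278 to 287 in the knockout. Their day 0 sums were 226 to 278 in wild type and 214 to 303 in the knockout. Likewise 8 neuron markers summed to 367 to 520 in wild type against 170 to 188 in the knockout, and 4 primed pluripotency markers to 48.5 to 95.4 against 99.3 to 181. At day 0 these were 185 to 216 against 162 to 201, and 43.0 to 47.2 against 21.2 to 24.5. In the knockout 6 of the 8 progenitor and 5 of the 8 neuron markers passed as higher at day 6 than at day 0 (limma, adjusted p under 0.05). In each list 1 passed as lower. Of all genes 21.9% passed as higher and 10.4% as lower. The sum of 6 extraembryonic markers differed between the wild type day 6 samples, at 1.32 and 19.5 FPKM, and was 1.83 and 6.39 in the knockout. Of 11 fibroblast markers, 11 averaged over 1 FPKM at day 0 in both genotypes, summing to 214 to 694 FPKM, against 28.2 to 40.0 in wild type and 14.8 to 17.3 in the knockout at day 6. Their part in the changes below was not tested, and in bulk RNA a change in the mix of cells and a change in RNA per cell cannot be told apart.

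The levels spanned a wide range. In wild type mESCs at day 0 the order of mean FPKM was Ldha at 489 ± 52.7, Pgk1 at 276 ± 71.8, Slc2a3 at 173 ± 29.4, Ldhb at 150 ± 30.7, Slc2a1 at 74.9 ± 26.7, Pfkp at 70.2 ± 1.61, Hk2 at 43.7 ± 5.28, Hk1 at 35.99 ± 13.1, Aldoc at 7.70 ± 4.62 and Eno2 at 1.23 ± 0.396 (SD, n = 2). In that order Slc2a3 and Ldhb overlapped in their sample values, as did Slc2a1 and Pfkp, and Hk2 and Hk1, while the other neighbors were separate. By day 6 the wild type order was Slc2a1 at 156 ± 9.001, Pgk1 at 156 ± 8.56, Ldha at 111 ± 2.39, Slc2a3 at 101 ± 9.18, Ldhb at 53.3 ± 6.72, Hk2 at 15.4 ± 0.924, Hk1 at 8.05 ± 0.561, Pfkp at 4.16 ± 1.80, Aldoc at 3.22 ± 0.118 and Eno2 at 2.20 ± 0.501. Among these neighbors, Slc2a1 and Pgk1 overlapped, and so did Pfkp and Aldoc. Pfkp had moved from a level like that of Slc2a1 to one like that of Aldoc. In Pcgf5-/- mESCs at day 0 the order was Ldha at 447 ± 80.9, Slc2a3 at 267 ± 54.6, Pgk1 at 252 ± 80.3, Ldhb at 140 ± 28.3, Slc2a1 at 103 ± 36.2, Hk2 at 62.7 ± 1.91, Pfkp at 59.2 ± 12.9, Hk1 at 27.0 ± 6.52, Aldoc at 12.1 ± 9.44 and Eno2 at 2.34 ± 0.709. Slc2a3 overlapped Pgk1 there, Ldhb overlapped Slc2a1, and Hk2 overlapped Pfkp. In the knockout at day 6 it was Slc2a1 at 255 ± 30.4, Ldhb at 172 ± 56.3, Slc2a3 at 150 ± 9.06, Pgk1 at 143 ± 11.2, Ldha at 136 ± 5.19, Hk2 at 24.95 ± 3.46, Pfkp at 13.7 ± 4.46, Hk1 at 10.4 ± 1.21, Aldoc at 8.14 ± 0.416 and Eno2 at 1.03 ± 0.109. In that order each neighbor from Ldhb down to Ldha overlapped the next, as did Pfkp and Hk1. The mean of Ldhb was above that of Ldha in this group alone, and within it only in replicate 2, at 212 against 132, while replicate 1 had 132 against 139.

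**Figure D1:**
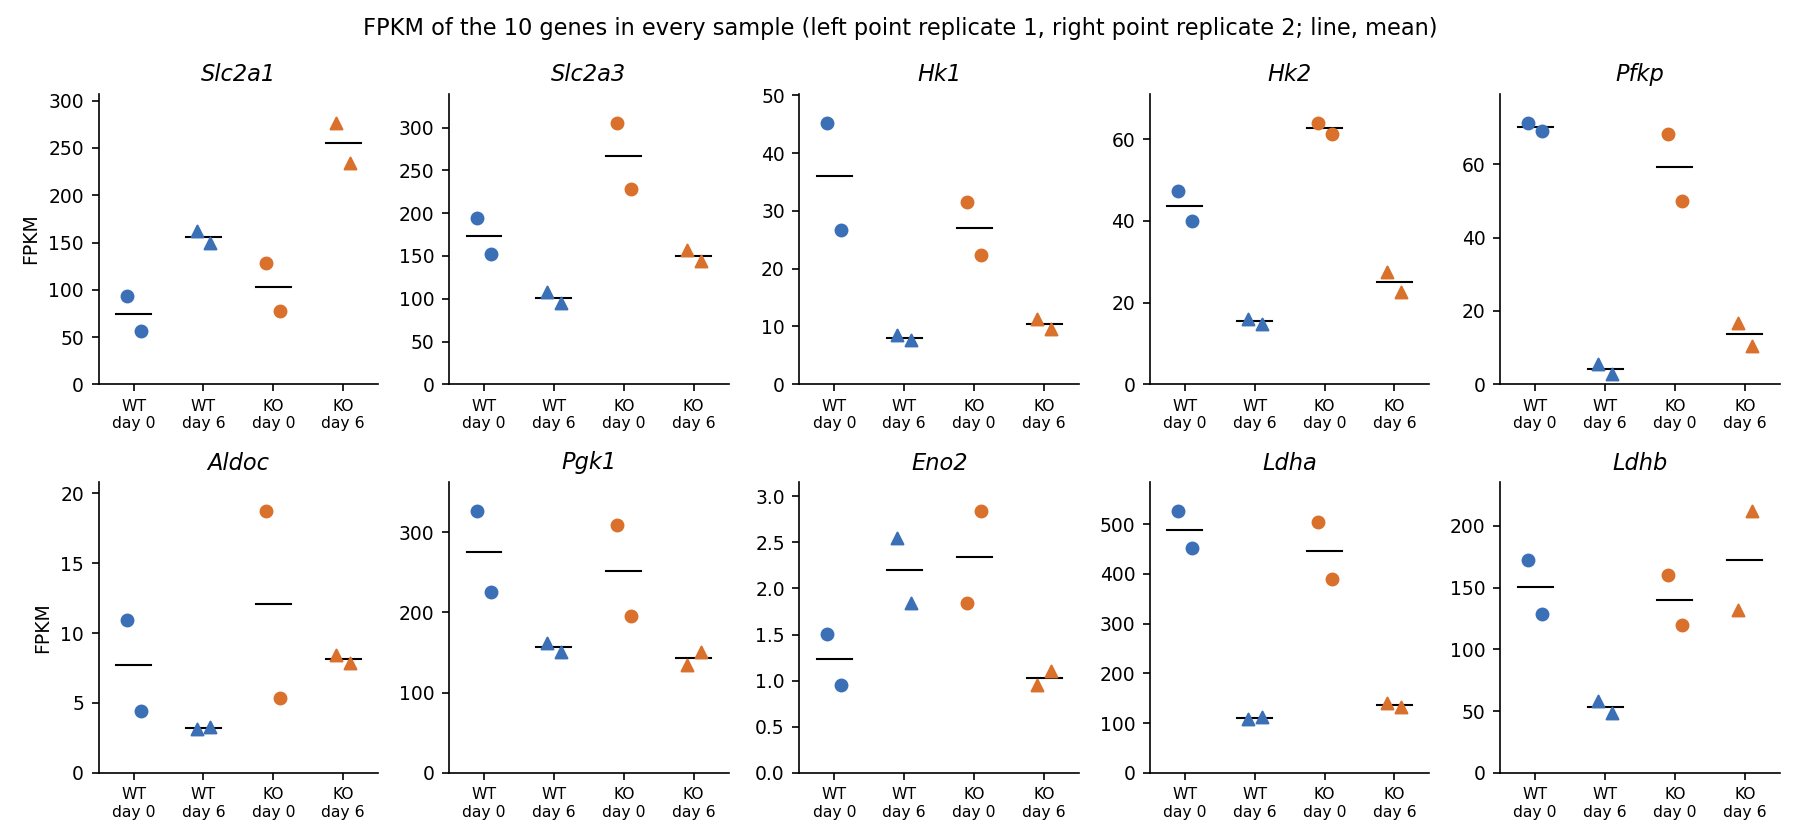
FPKM of each of the 10 genes (vertical axes, linear from 0, scaled separately) in wild type (WT, blue) and Pcgf5-/- (KO, orange) cells at day 0 (circles) and day 6 (triangles), with the group mean as a line. Pfkp, Ldha and both hexokinases were lower at day 6 in every sample, Slc2a1 was higher at day 6, and Ldhb stayed at 132 and 212 FPKM in Pcgf5-/- cells at day 6 while wild type cells were at 58.1 and 48.6.

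Between day 0 and day 6, 8 of the 10 genes passed the test in wild type cells, 1 higher and 7 lower, and the median log2 fold change of the 10 was -1.19. The test was limma on log2(FPKM + 1) over all 8 samples with Benjamini-Hochberg adjustment over all genes tested. Of all genes tested, 50.5% passed in the same comparison, 34.2% higher and 16.2% lower, with a median log2 fold change of 0.22. In Pcgf5-/- cells 8 of the 10 genes also passed, again 1 higher and 7 lower, with a median of -0.80, where 32.3% of all genes passed, 21.9% higher and 10.4% lower, with a median of 0.13. Log2 fold changes below are day 6 minus day 0 on this scale, with the standard error, unless a difference between genotypes is named. The scale understates the change of a gene with few FPKM, such as Eno2.

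The transporters moved in opposite directions. Slc2a1 (GLUT1, chr4:118781350-118809934 in mm9, plus strand), the widely expressed basal glucose transporter, started at 93.8 and 56.0 FPKM in the wild type replicates at day 0 and was found at 163 and 150 at day 6. The Pcgf5-/- replicates held 129 and 77.5 FPKM at day 0, then 277 and 234. Day 6 samples were above day 0 samples in each genotype. Slc2a1 rose by 1.10 ± 0.28 in wild type (adjusted p = 0.0121) and by 1.34 ± 0.28 in Pcgf5-/- cells (adjusted p = 0.00906), the only member that passed as higher in either. Scaling to sample medians, which put the median change of all genes in wild type at -0.15 in place of 0.22, left the wild type rise of Slc2a1 at 0.73 with adjusted p = 0.073. Slc2a3 (GLUT3, chr6:122677827-122692763, minus strand), the high-affinity transporter prominent in neurons and early embryos, went from 194 and 152 FPKM at day 0 to 108 and 94.6 at day 6 in the wild type replicates. Its Pcgf5-/- values were 306 and 229 FPKM before and 157 and 144 after differentiation. It fell by 0.76 ± 0.17 in wild type (adjusted p = 0.00723) and by 0.82 ± 0.17 in Pcgf5-/- cells (adjusted p = 0.00993), with no overlap between days in either genotype.

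Both hexokinases fell. Hk1 (chr10:61731603-61842656, minus strand), the constitutive form, had wild type values of 45.3 and 26.7 FPKM at day 0, followed by 8.45 and 7.66 at day 6. For the knockout they read 31.6 and 22.4 FPKM, followed by 11.3 and 9.58. It fell by 1.99 ± 0.26 in wild type (adjusted p = 0.000463) and by 1.28 ± 0.26 in Pcgf5-/- cells (adjusted p = 0.00785). Hk2 (chr6:82675021-82724448, minus strand), the inducible form of muscle, embryos and tumors, started at 47.4 and 40.0 FPKM in the wild type replicates at day 0 and was found at 16.0 and 14.7 at day 6. The Pcgf5-/- replicates held 64.1 and 61.4 FPKM at day 0, then 27.4 and 22.5. The falls were 1.44 ± 0.15 (adjusted p = 0.000141) and 1.30 ± 0.15 (adjusted p = 0.000672), and for both genes every day 6 sample lay below every day 0 sample.

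Pfkp had the largest change of the 10 genes. This platelet-type subunit of phosphofructokinase (chr13:6579120-6648017, minus strand) went from 71.3 and 69.1 FPKM at day 0 to 5.44 and 2.89 at day 6 in the wild type replicates. Its Pcgf5-/- values were 68.3 and 50.02 FPKM before and 16.8 and 10.5 after differentiation. It fell by 3.83 ± 0.29 in wild type, a 14.2-fold drop (adjusted p = 3.37e-05), and by 2.06 ± 0.29 in Pcgf5-/- cells, a 4.16-fold drop (adjusted p = 0.00174). Its paralogs at the same step did not move as far: Pfkl, the liver-type subunit, fell by 0.67 in wild type (adjusted p = 0.0496, or 0.0655 without the variance trend), and Pfkm, the muscle-type subunit, rose by 1.02 in Pcgf5-/- cells (adjusted p = 0.00254). In wild type cells at day 6, Pfkp at 5.44 and 2.89 FPKM was the lowest of the 3 subunits, with Pfkm at 18.9 and 18.0 FPKM and Pfkl at 26.4 and 25.3 FPKM, whereas at day 0 it was the highest.

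Aldoc and Eno2, the isoforms of aldolase and enolase enriched in brain, were the least abundant members. Aldoc (chr11:78136575-78141280, plus strand) had wild type values of 10.97 and 4.43 FPKM at day 0, followed by 3.14 and 3.31 at day 6. For the knockout they read 18.7 and 5.39 FPKM, followed by 8.44 and 7.85. Its day 0 replicates differed from each other more than the day groups did, and its changes of -0.93 ± 0.51 and -0.30 ± 0.51 did not pass the test (adjusted p = 0.161 and 0.691). Its abundant paralog Aldoa fell by 1.33 in wild type (adjusted p = 9.47e-05) and by 0.61 in Pcgf5-/- cells (adjusted p = 0.00836). Eno2 (chr6:124710071-124719691, minus strand), also called neuron-specific enolase, started at 1.51 and 0.9497 FPKM in the wild type replicates at day 0 and was found at 2.55 and 1.84 at day 6. The Pcgf5-/- replicates held 1.84 and 2.84 FPKM at day 0, then 0.951 and 1.11. Its wild type samples were higher at day 6 by 0.52 ± 0.23 (adjusted p = 0.0919), and its Pcgf5-/- samples fell by 0.70 ± 0.23 (adjusted p = 0.0487), a call that was lost when any 1 of the 8 samples was left out (adjusted p 0.0516 to 0.216).

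Pgk1 (chrX:103382439-103399038, plus strand), the phosphoglycerate kinase of somatic cells, went from 326 and 225 FPKM at day 0 to 162 and 150 at day 6 in the wild type replicates. Its Pcgf5-/- values were 309 and 195 FPKM before and 135 and 151 after differentiation. The falls of 0.79 ± 0.24 in wild type (adjusted p = 0.0232) and 0.78 ± 0.24 in Pcgf5-/- cells (adjusted p = 0.037) were close in size. The wild type call was lost without replicate 1 of wild type day 0, where the fall was 0.52 (adjusted p = 0.149), and without either wild type day 6 sample (0.85 and 0.74, adjusted p = 0.0641 and 0.105). The Pcgf5-/- call was lost without replicate 1 of Pcgf5-/- day 0 (a fall of 0.45, adjusted p = 0.217) and without any of the 4 day 6 samples (adjusted p 0.0543 to 0.146). Without the filter on low values neither passed (adjusted p = 0.0635 and 0.0906), and the Pcgf5-/- call was also lost under quantile normalization (adjusted p = 0.0586) and without the variance trend (adjusted p = 0.0531). The deposited Pgk1 value lay above the upper bound of its own deposited confidence interval in 8 of the 8 samples, as did that of Slc2a3 in 7 and Slc2a1 in 6. Taking the midpoint of the interval in place of the value, an alternative chosen after seeing the data, left each of the day calls of these 3 genes in place.

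At the last step, Ldha (chr7:54101174-54110997, plus strand), the most abundant of the 10 genes at day 0, had wild type values of 526 and 452 FPKM at day 0, followed by 109 and 112 at day 6. For the knockout they read 504 and 389 FPKM, followed by 139 and 132. It fell by 2.13 ± 0.15 in wild type, 4.38-fold (adjusted p = 2.27e-05), and by 1.70 ± 0.15 in Pcgf5-/- cells, 3.25-fold (adjusted p = 0.00024). Ldhb (chr6:142438769-142456477, minus strand) started at 172 and 129 FPKM in the wild type replicates at day 0 and was found at 58.1 and 48.6 at day 6. The Pcgf5-/- replicates held 160 and 120 FPKM at day 0, then 132 and 212. In wild type it fell by 1.47 ± 0.25, 2.77-fold (adjusted p = 0.00174). In Pcgf5-/- cells day 6 and day 0 samples overlapped, with a difference of 0.27 ± 0.25 (95% interval -0.30 to 0.85, adjusted p = 0.438).

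**Figure D2:**
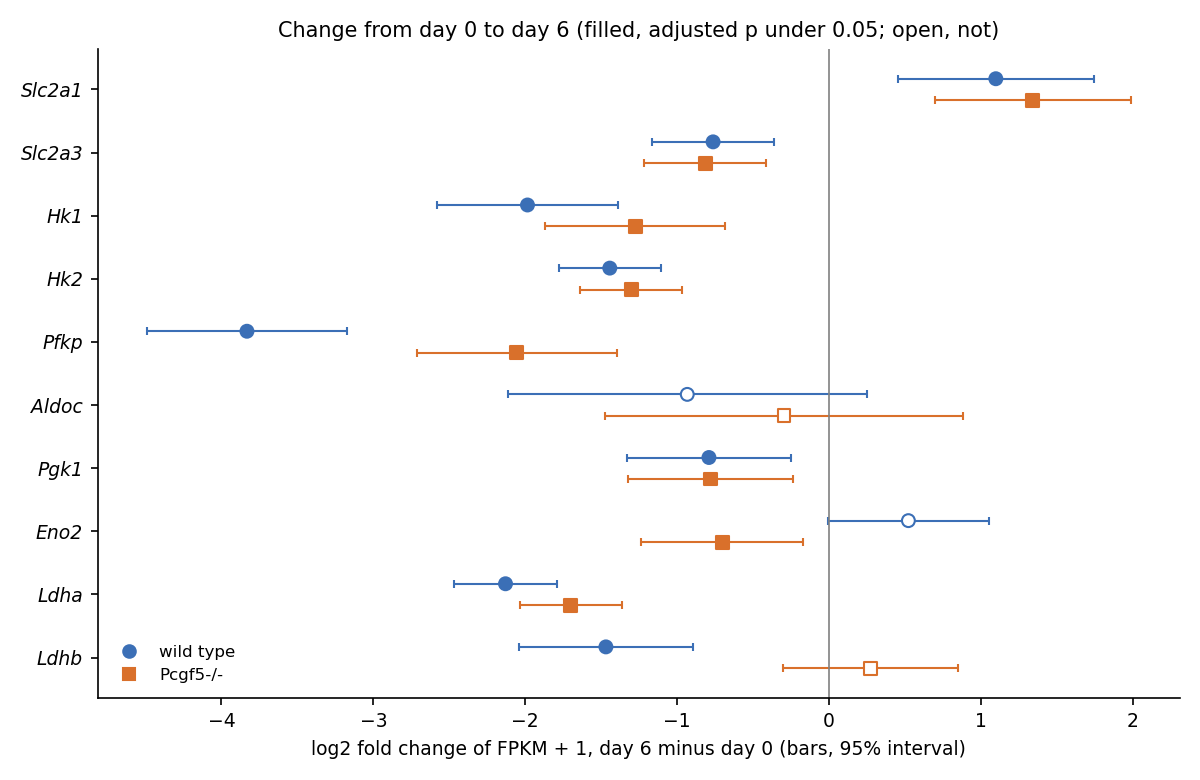
Log2 fold change of FPKM + 1 from day 0 to day 6 (horizontal axis) for each gene in wild type (blue circles) and Pcgf5-/- cells (orange squares), with 95% intervals from limma; filled symbols passed at an adjusted p under 0.05. Slc2a1 stands to the right of zero in both genotypes, Pfkp lies farthest to the left at -3.83 in wild type and -2.06 in Pcgf5-/- cells, and Ldhb lies at -1.47 in wild type and 0.27 in the knockout.

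The isoform balance was measured as the ratio of FPKM within each sample, which does not depend on the scaling of the sample. For the transporters, Slc2a3 made up 67.4% and 73.1% of the summed FPKM of Slc2a3 and Slc2a1 in wild type and 70.4% and 74.7% in Pcgf5-/- mESCs at day 0. At day 6 its share was 39.8% and 38.7% in wild type and 36.1% and 38.1% in Pcgf5-/- cells, so the order of the transporters was turned around in all samples. Averaged over genotypes the ratio fell 4.06-fold, a log2 difference of -2.02 (exact permutation test of the day labels within genotype, two-sided, p = 0.0556, the smallest p that its 36 assignments can give). Between genotypes the log2 ratio differed by 0.16 at day 0 and by -0.13 at day 6 (exact permutation p = 0.667 and 0.333), and 0.333 is the smallest p that 2 samples against 2 allow.

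For lactate dehydrogenase, Ldhb made up 24.7% and 22.2% of the summed FPKM of Ldhb and Ldha in wild type and 24.1% and 23.5% in Pcgf5-/- mESCs at day 0. At day 6 it made up 34.8% and 30.2% in wild type and 48.7% and 61.6% in Pcgf5-/- cells, where the subunits were near equal in replicate 1 and Ldhb was ahead in replicate 2. The ratio rose 2.49-fold over the days when averaged over genotypes (log2 difference 1.32, exact permutation p = 0.0556). It differed between genotypes by 0.03 on the log2 scale at day 0 (exact permutation p = 1) and by 1.36, or 2.57-fold, at day 6 (exact permutation p = 0.333), where both Pcgf5-/- samples were above both wild type samples.

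For the hexokinases, Hk2 made up 51.2% and 59.9% of the summed FPKM of Hk2 and Hk1 in wild type and 67.0% and 73.3% in Pcgf5-/- mESCs at day 0. At day 6 its share was 65.5% and 65.8% in wild type and 70.8% and 70.1% in Pcgf5-/- cells. The mean log2 ratio went from 0.32 ± 0.36 to 0.94 ± 0.01 in wild type and from 1.24 ± 0.31 to 1.26 ± 0.03 in Pcgf5-/- cells (SD, n = 2), and the average day difference was 0.31 (exact permutation p = 0.167). The Pcgf5-/- samples were above the wild type samples at both days, by 0.91 and 0.32 (exact permutation p = 0.333 for each). In each of the pairs, the first gene of the ratio (Slc2a3, Ldhb, Hk2) lies on chromosome 6 and the second (Slc2a1, Ldha, Hk1) does not. This bears on the genotype comparison of all these ratios, as described next.

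**Figure D3:**
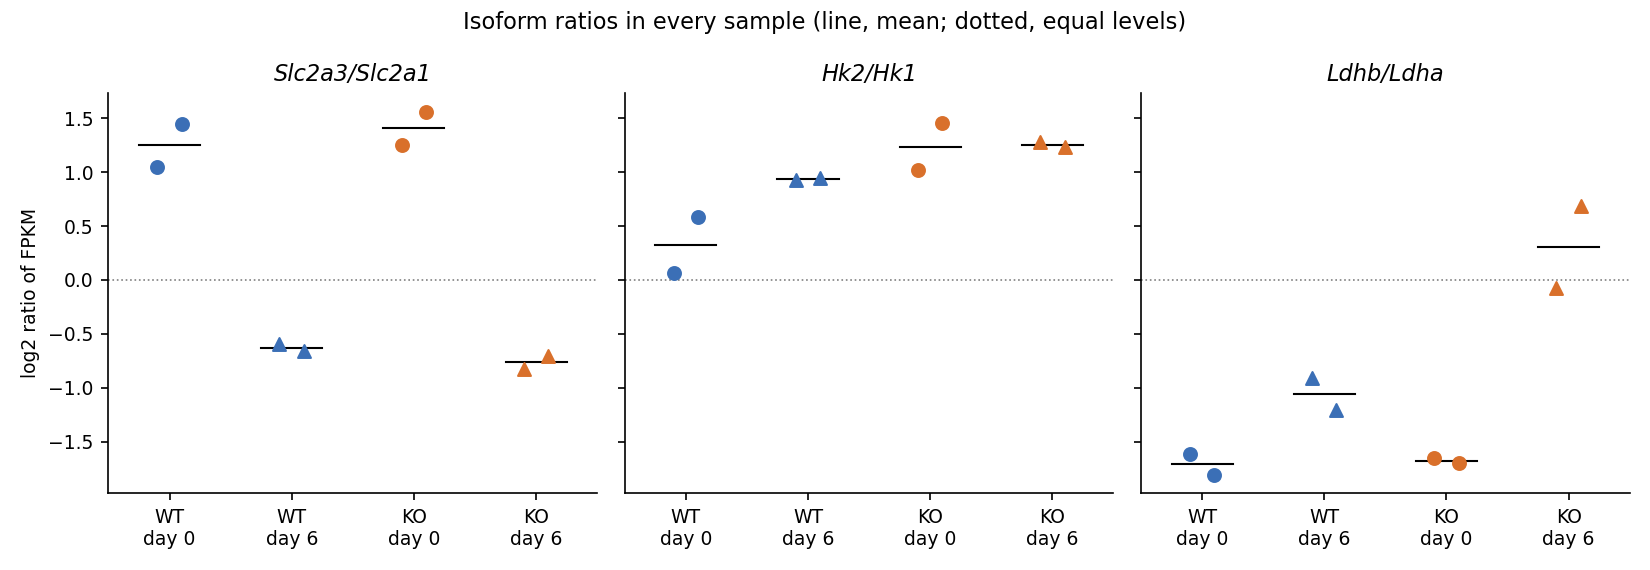
Log2 ratio of FPKM (vertical axis, shared) for the isoform pairs Slc2a3/Slc2a1, Hk2/Hk1 and Ldhb/Ldha in every sample of wild type (WT, blue) and Pcgf5-/- (KO, orange) cells at day 0 (circles) and day 6 (triangles), with the group mean as a line and a dotted line where both isoforms are equal. The transporter ratio crosses the dotted line between the days in both genotypes, and the Ldhb/Ldha ratio comes near it only in Pcgf5-/- cells at day 6, at -0.08 and 0.68.

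The comparison of Pcgf5-/- with wild type has to be read beside the chromosome a gene lies on. Over all genes tested on chromosome 6 the median log2 fold change was 0.41 at day 0 and 0.37 at day 6, and on chromosome 11 it was 0.48 and 0.38, whereas the medians of the other 18 chromosomes ran from 0.04 to 0.12 at day 0 and from -0.06 to 0.03 at day 6. Slc2a3, Hk2, Eno2 and Ldhb lie on chromosome 6 and Aldoc on chromosome 11. The part of extra copies of these chromosomes in the Pcgf5-/- line was not tested.

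At day 0, 0 of the 10 genes passed the test between genotypes (limma, adjusted p under 0.05), against 0.333% of all genes, and 3 had an unadjusted p under 0.05, against 17.4% of all genes. These 3 were Slc2a3, higher by 0.62 ± 0.17 (adjusted p = 0.121), Eno2, higher by 0.58 ± 0.23 (adjusted p = 0.251), and Hk2, higher by 0.52 ± 0.15 (adjusted p = 0.122), and all of them lie on chromosome 6. Pcgf5-/- samples were above wild type samples without overlap for these 3 genes (34.6% of all genes) and below them for 1, Pfkp (13.3% of all genes). Ldha differed by -0.14 (95% interval -0.47 to 0.20), Ldhb by -0.11 (-0.68 to 0.47), Pgk1 by -0.14 (-0.69 to 0.40) and Pfkp by -0.26 (-0.92 to 0.40).

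At day 6, Ldhb, Pfkp and Hk2 were higher in Pcgf5-/- cells, 3 of the 10 genes, where 16.6% of all genes passed, 9.57% higher and 7.05% lower. Ldhb was higher by 1.64 ± 0.25, 3.11-fold (adjusted p = 0.00803), and Pfkp by 1.52 ± 0.29, 2.86-fold (adjusted p = 0.0133). Hk2 was higher by 0.66 ± 0.15, 1.58-fold (adjusted p = 0.022). After the median of its chromosome was subtracted, Hk2 differed by 0.29 (adjusted p = 0.228), Ldhb by 1.27 (adjusted p = 0.0174), and Pfkp by 1.55 (adjusted p = 0.0142). Eno2, lower in Pcgf5-/- cells by 0.65 ± 0.23 (adjusted p = 0.0915), differed by -1.02 (adjusted p = 0.0271) after that subtraction.

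The remaining genes did not pass at day 6, although most had separate samples. Slc2a1 differed by 0.70 (95% interval 0.06 to 1.34, adjusted p = 0.125), Slc2a3 by 0.57 (0.17 to 0.97, adjusted p = 0.0603), and Aldoc by 1.11 (-0.07 to 2.29, adjusted p = 0.175). Hk1 differed by 0.33 (-0.26 to 0.93, adjusted p = 0.409), Ldha by 0.29 (-0.04 to 0.63, adjusted p = 0.207) and Pgk1 by -0.13 (-0.67 to 0.41, adjusted p = 0.746). Pcgf5-/- samples were above wild type samples without overlap for 8 of the 10 genes, against 33.4% of all genes, and below them for 1, Eno2, against 28.8% of all genes. Among those above were Slc2a3, Hk2 and Ldhb of chromosome 6 and Aldoc of chromosome 11. The median difference of the 10 genes was 0.61, and 0.31 after subtraction of the chromosome medians. Pgk1 was the only member whose samples overlapped. Leaving out replicate 1 of Pcgf5-/- day 6 or replicate 2 of wild type day 6 left 1 call, that of Ldhb: Pfkp was then at 1.20 and 1.15 (adjusted p = 0.0838 and 0.0712) and Hk2 at 0.52 and 0.60 (adjusted p = 0.118 and 0.119), and without replicate 1 of wild type day 6 Hk2 was at 0.72 (adjusted p = 0.0602).

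**Figure D4:**
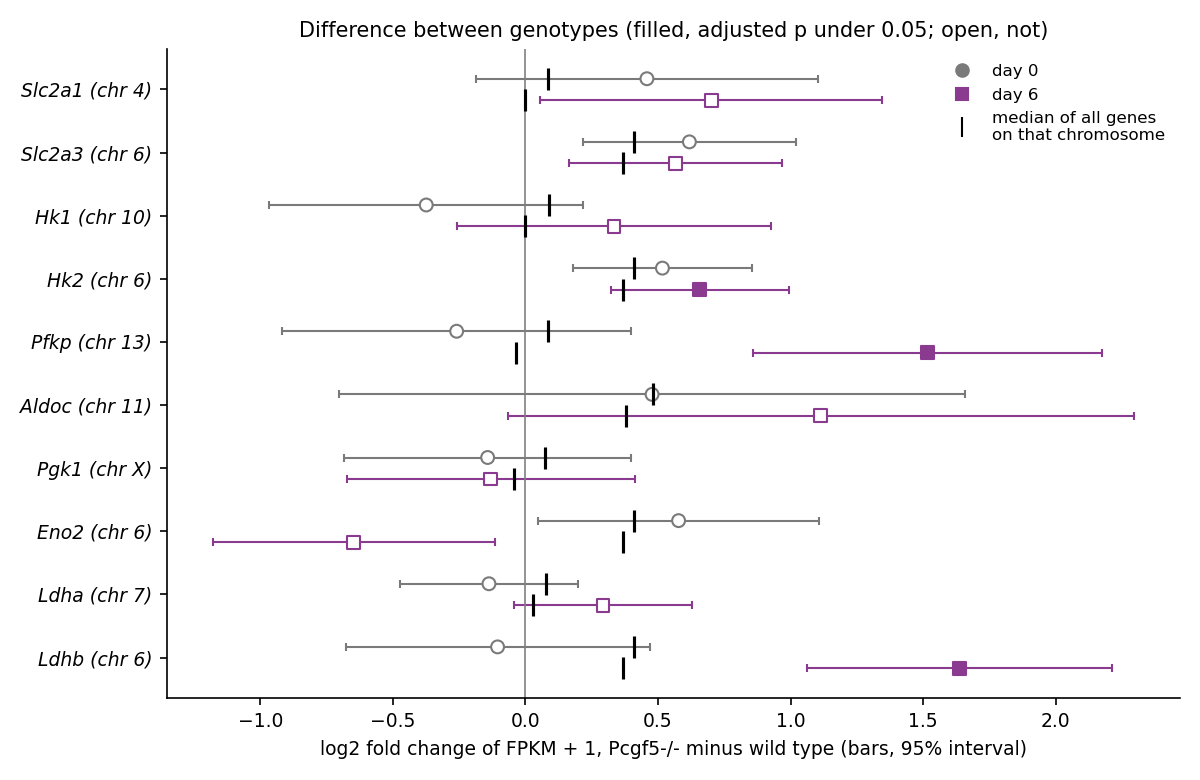
Log2 fold change of FPKM + 1, Pcgf5-/- minus wild type (horizontal axis), for each gene at day 0 (grey circles) and day 6 (purple squares), with 95% intervals from limma and, as a black tick, the median of all genes on the same chromosome; filled symbols passed at an adjusted p under 0.05. Ldhb at 1.64 and Pfkp at 1.52 lie well to the right of their chromosome's tick at day 6, whereas the interval of Hk2 at day 6 holds its tick at 0.37.

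The difference of the day change between genotypes was tested directly. Ldhb passed, with a change that was 1.74 ± 0.35 higher in Pcgf5-/- than in wild type cells (adjusted p = 0.0439), making 1 of the 10 genes where 3.09% of all genes passed and 1.34% passed as higher. The call was lost when any 1 of the 8 samples was left out, with differences between 1.40 and 2.08 and adjusted p between 0.0559 and 0.139, and also without the filter on low values (adjusted p = 0.107), without the variance trend (adjusted p = 0.0523) and with the replicate number as a block (adjusted p = 0.0562). Pfkp differed by 1.78 ± 0.41 (adjusted p = 0.0557), which passed with that block (adjusted p = 0.0314) and without replicate 1 of wild type day 6 (2.14, adjusted p = 0.041), and Eno2 by -1.23 ± 0.33 (adjusted p = 0.0788). The other 7 genes had adjusted p between 0.258 and 0.987, among them Slc2a1 at 0.24 (95% interval -0.67 to 1.15), Slc2a3 at -0.05 (-0.62 to 0.52), Hk2 at 0.14 (-0.33 to 0.62) and Pgk1 at 0.01 (-0.76 to 0.78).

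The rest of the pathway was described from lists. Of 19 other glycolytic enzymes 13 were tested. In wild type 9 fell and 0 rose between the days, against 16.2% and 34.2% of all genes, with a median of -0.67. In Pcgf5-/- cells 5 fell and 1 rose, against 10.4% and 21.9% of all genes, with a median of -0.34. Under quantile normalization 7 fell in wild type and 3 in Pcgf5-/- cells, with medians of -0.53 and -0.30. The wild type falls of Gapdh and Gpi1 did not pass there (limma, adjusted p = 0.662 and 0.139). Scaling to sample medians gave 9 and 6 falls. The 4 largest falls in wild type were those of Aldoa, Ldhc, the testis-type lactate dehydrogenase, by 1.12 (adjusted p = 0.0165), Tpi1, triosephosphate isomerase, by 0.94 (adjusted p = 0.00313), and Pgam1, phosphoglycerate mutase, by 0.88 (adjusted p = 0.000523). At day 6 Aldoa was higher in Pcgf5-/- cells by 0.61 (adjusted p = 0.0171), the 1 call of the 13, where 9.57% of all genes were higher and 7.05% lower. Pcgf5-/- samples were above wild type samples without overlap for 10 of the 13 and below for 0, against 33.4% and 28.8% of all genes. The median difference was 0.28, where all genes had 0.02, and it was 0.17 after subtraction of the chromosome medians.

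Of 11 regulators of the pathway tested, 3 were higher in Pcgf5-/- cells at day 6 and 0 lower, where 9.57% of all genes were higher and 7.05% lower. Pdk1 and Pdk4 encode kinases that inactivate pyruvate dehydrogenase, and were higher by 1.48 (adjusted p = 0.027) and 1.24 (adjusted p = 0.0334). Pdk1 measured 25.4 and 18.9 FPKM in Pcgf5-/- and 9.33 and 5.51 FPKM in wild type cells, with no overlap. Tigar, a phosphatase that lowers fructose-2,6-bisphosphate, was higher by 0.82 (adjusted p = 0.0158); like Pdk4 it lies on chromosome 6. After subtraction of the chromosome median Tigar was at 0.45 and Pdk4 at 0.87 (adjusted p = 0.108 and 0.105), which left 1 call of the 11, that of Pdk1. In wild type cells between the days 4 regulators fell, among them Pdp2, a pyruvate dehydrogenase phosphatase, by 1.96 (adjusted p = 0.000481), and 2 rose, the larger rise being that of Pfkfb3, a maker of fructose-2,6-bisphosphate, by 1.22 (adjusted p = 0.012). In Pcgf5-/- cells 1 fell, Tigar, by 0.78 (adjusted p = 0.00957). Of all genes, 16.2% fell and 34.2% rose in wild type, and 10.4% fell and 21.9% rose in Pcgf5-/- cells.

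The steps around glycolysis were measured beside it, and their counts of falls and rises in wild type stand against 16.2% and 34.2% of all genes. Those in Pcgf5-/- cells stand against 10.4% and 21.9%. Between genotypes at day 6, 1 of 4 sugar transporters and 1 of 9 pentose phosphate genes passed as higher, and 1 of 7 pyruvate entry genes as lower. None of the lactate transport or gluconeogenic genes passed. Of all genes 9.57% passed as higher and 7.05% as lower. Of 3 lactate transport genes tested, Bsg, the chaperone of the monocarboxylate transporters, fell in wild type by 0.75 (adjusted p = 0.00149) and in Pcgf5-/- cells by 0.60 (adjusted p = 0.0081), and Slc16a1 (MCT1) fell in Pcgf5-/- cells by 0.80 (adjusted p = 0.0172). Slc16a3 (MCT4) changed by -1.23 in wild type and was higher in Pcgf5-/- cells at day 6 by 1.40. Neither passed (limma, adjusted p = 0.0571 and 0.0756), but both did with the replicate number as a block (0.000436 and 0.00473). Of 7 genes of pyruvate entry into mitochondria, 3 fell and 1 rose in wild type, the largest fall being that of the carrier subunit Mpc1 by 1.18 (adjusted p = 0.00958), and the other subunit, Mpc2, was lower in Pcgf5-/- cells at day 6 by 0.82 (adjusted p = 0.049), a call lost under most alternatives (adjusted p 0.0503 to 0.215). Of 4 other sugar transporters tested, Slc2a4 (GLUT4), the insulin-responsive form, rose in wild type by 1.77 (adjusted p = 0.000972) and in Pcgf5-/- cells by 0.98 (adjusted p = 0.0247), yet stayed at 1.15 to 3.74 FPKM at day 6, and Slc2a5, the fructose transporter, was higher in Pcgf5-/- cells at day 6 by 0.79 (adjusted p = 0.0333). Of 4 gluconeogenic genes tested, Fbp2 and Pck2 fell in wild type by 2.71 and 1.44 (adjusted p = 0.00292 and 0.00162) and G6pc3 rose by 0.98 (adjusted p = 0.0253). Of 9 genes of the pentose phosphate pathway tested, 2 fell and 2 rose in wild type, and the transketolase-like gene Tktl1 was higher in Pcgf5-/- cells at day 6 by 0.78 (adjusted p = 0.0317). Under quantile normalization the Pcgf5-/- rise of Slc2a4 and the wild type rises of G6pc3 and Pfkfb3 did not pass (adjusted p = 0.116, 0.132 and 0.0738). The genotype calls at day 6 of Aldoa, Pdk4, Mpc2, Slc2a5 and Tktl1 were each lost when any 1 of the day 6 samples was left out. That of Pdk1 was lost without either Pcgf5-/- sample or replicate 2 of wild type. That of Tigar was lost without replicate 1 of Pcgf5-/- or replicate 2 of wild type. With a pseudocount of 5, Slc2a5 and Pdk4 were at 0.22 and 0.42 and did not pass (adjusted p = 0.0518 and 0.0848). Quantile normalization lost both calls as well (adjusted p = 0.067 and 0.0526).

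**Figure D5:**
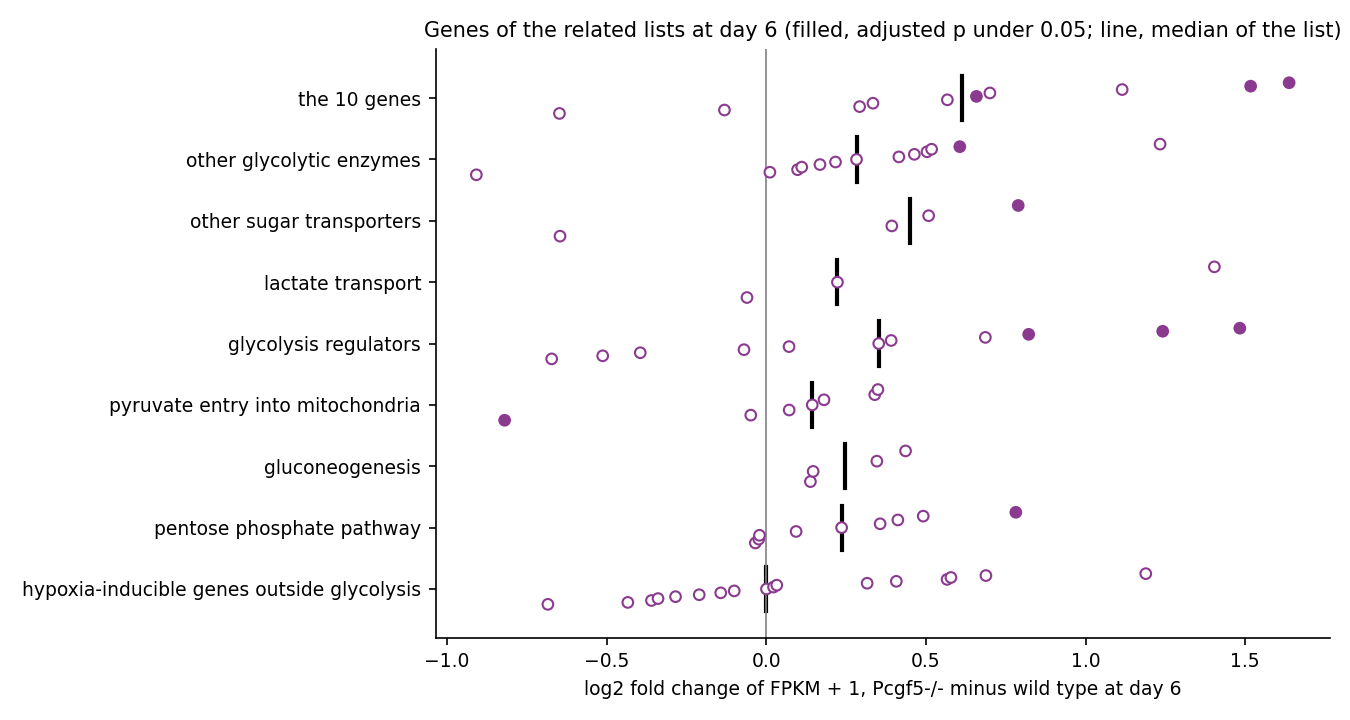
Log2 fold change of FPKM + 1, Pcgf5-/- minus wild type at day 6 (horizontal axis), for every tested gene (points) of the 10 genes described here and of 8 related lists (rows), with the median of each list as a line; filled points passed at an adjusted p under 0.05. The medians lie at 0.61 for the 10 genes, 0.28 for the other glycolytic enzymes and 0.00 for the hypoxia-inducible genes outside glycolysis. After subtraction of the median of each gene's chromosome, which is not drawn, they were 0.31, 0.17 and -0.06.

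Several of the 10 genes are known targets of the hypoxia-inducible factors, so hypoxia-inducible genes with no part in glycolysis were set beside them. Of 17 tested, 6 fell in wild type and 4 in Pcgf5-/- cells between the days, where 16.2% and 10.4% of all genes fell. None rose in either, where 34.2% and 21.9% of all genes rose, and the medians were -0.05 and -0.32. Bnip3, a mitophagy receptor, fell in wild type by 1.86 (adjusted p = 0.0182), and Ndrg1 fell by 1.52 and 1.66 (adjusted p = 0.0435 and 0.0455). Without the filter on low values these calls were lost (adjusted p = 0.0596 for Bnip3, 0.108 and 0.113 for Ndrg1). Those of Ndrg1 were also lost without the variance trend (0.0505 and 0.0527) and with a pseudocount of 5 (0.0574 and 0.061). Without replicate 1 of wild type day 0 the wild type falls of Bnip3 and Ndrg1 were 1.30 and 0.86. At day 6 0 of the 17 passed between genotypes in limma, against 16.6% of all genes, and the median difference was 0.00. Pcgf5-/- samples were above wild type samples without overlap for 3 of the 17 and below for 4, against 33.4% and 28.8% of all genes. Under the alternative with the replicate number as a block 1 of the 17 passed. With a block for each day Kdm3a and Bnip3 were higher in Pcgf5-/- cells, by 0.57 and 0.69 (limma, adjusted p = 0.0154 and 0.0424). Egln1 was lower by 0.68 under that block (adjusted p = 0.0314). Bnip3 also passed there in the difference of the day change, at 1.26 (adjusted p = 0.0429). The day 0 replicates differed in the members and in the lists beside them. Replicate 1 was above replicate 2 in 10 of the 10 members in wild type and in 9 of the 10 in Pcgf5-/- mESCs. The median log2 differences were 0.39 and 0.43, whereas 46.9% and 43.0% of all genes were higher in replicate 1. For the hypoxia-inducible genes replicate 1 was higher in 15 and 12 of 17, with medians of 0.65 and 0.37, and for the other glycolytic enzymes in 9 and 11 of 13, with medians of 0.08 and 0.23. At day 6 replicate 1 was higher in 8 of the 10 members in wild type and in 7 in Pcgf5-/- cells, with medians of 0.12 and 0.11. Of all genes 51.4% and 46.3% were higher in replicate 1 there. For the hypoxia-inducible genes it was higher in 14 and 8 of 17, with medians of 0.35 and -0.02. For the other glycolytic enzymes it was higher in 5 and 6 of 13, with medians of -0.02 and -0.05.

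Across the 8 samples, which fall into groups by day, the member whose log2(FPKM + 1) was most like that of Ldha was Hk1 (Pearson r = 0.98), and Ldha was in turn the member most like Pfkp (r = 0.96). The values are a description over the same 8 libraries and share the day change. Among the genes of the related lists, the most like Pfkp was Pkm (r = 0.99), the most like Ldha was Pgam1 (r = 0.99), and the most like Pgk1 was Ero1l, an oxidase of the endoplasmic reticulum (r = 0.98). Hk2 was nearest to Pfkp among the members (r = 0.95), and Slc2a3 was nearest to Hk2 (r = 0.95). Slc2a1 and Eno2 had no member above r = 0.12 and 0.10. Ldhb was nearest to Aldoc among the members (r = 0.76) and to Pdk4 among the related genes (r = 0.92).

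The upstream sequences of 4 genes are shown because they fell most (Ldha, Pfkp), alone passed as higher at day 6 than at day 0 (Slc2a1) or differed most between genotypes (Ldhb). Promoter windows were found for 9 of the 10 genes by symbol in RefSeq (GRCm38.p6), 12 windows in all; Slc2a3 had none. The 250 bases before each start were searched on both strands for ACGTG and GCGTG, the core letters bound by hypoxia-inducible factors, and for the E-box CACGTG, which overlaps ACGTG on both strands. Of the 12 windows 10 held a core, where 38.6% of all 32851 windows of that length did, and 1, that of Ldha, held the E-box, at 2 places, where 6.02% of all did. The 10 windows belonged to 8 genes. Each of these motifs contains a CpG, and the shares were not adjusted for CpG content. The 12 windows held 1 to 25 CpG, and the median over all windows was 6. Each run below matched the mm9 genome at 1 place and ends at the base before the start of the locus given above, on the coding strand from 5′ to 3′, with the cores of either strand in capitals. The positions are chr7:54100924-54101173 for Ldha (plus strand), chr13:6648018-6648267 for Pfkp (minus), chr4:118781100-118781349 for Slc2a1 (plus) and chr6:142456478-142456727 for Ldhb (minus).
Ldha: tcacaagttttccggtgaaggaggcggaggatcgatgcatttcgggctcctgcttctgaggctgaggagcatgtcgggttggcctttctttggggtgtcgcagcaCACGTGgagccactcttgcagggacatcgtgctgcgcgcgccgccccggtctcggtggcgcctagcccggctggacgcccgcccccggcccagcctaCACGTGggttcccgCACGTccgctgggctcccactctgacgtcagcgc
Pfkp: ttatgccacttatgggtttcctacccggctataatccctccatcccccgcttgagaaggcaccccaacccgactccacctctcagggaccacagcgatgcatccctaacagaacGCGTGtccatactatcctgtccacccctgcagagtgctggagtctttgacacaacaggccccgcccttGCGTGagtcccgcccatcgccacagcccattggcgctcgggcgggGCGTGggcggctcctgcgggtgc
Slc2a1: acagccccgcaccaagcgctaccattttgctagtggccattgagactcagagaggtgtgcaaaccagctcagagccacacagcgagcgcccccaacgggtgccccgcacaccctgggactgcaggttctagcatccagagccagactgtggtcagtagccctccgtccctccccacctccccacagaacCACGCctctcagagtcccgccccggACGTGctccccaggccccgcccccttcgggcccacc
Ldhb: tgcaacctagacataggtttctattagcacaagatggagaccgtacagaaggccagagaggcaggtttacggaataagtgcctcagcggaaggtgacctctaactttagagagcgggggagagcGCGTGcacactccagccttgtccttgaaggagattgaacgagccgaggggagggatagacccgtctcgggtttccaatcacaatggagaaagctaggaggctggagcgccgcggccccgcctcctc
Ldha held 3 stretches of core letters, of which 2 were whole E-boxes, and Pfkp held 3, Slc2a1 held 2 and Ldhb held 1. The number of CpG dinucleotides was 25 for Ldha, 16 for Pfkp, 13 for Slc2a1 and 14 for Ldhb, and the median over all windows was 6. The windows without a core were those of Eno2 and of 1 of the pair of Hk1 starts. A match is a description of letters and was not linked to binding in these cells.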

How the data were processed

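Gene-level FPKM values with confidence bounds were deposited for 8 poly(A) RNA libraries, 2 in each group of genotype and day. The FPKM values were made by the authors from alignments to mm9. The submitters' processing notes name TopHat2 2.0.4 and Cufflinks 2.1.1. By the paper's methods, exact duplicates of reads were removed before mapping. No counts were given, so absolute depth is unknown. The most common ratio of values under 0.5 FPKM between samples put relative depth between 1.00 and 1.30.

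Rows were joined by gene name and locus, and groups were taken from the sample titles. Genes with a mean above 1 FPKM in at least 1 group (13214 of 24849) were tested in limma 3.58.1 (R 4.3.3) on log2(FPKM + 1), with 1 mean per group, a variance trend and Benjamini-Hochberg adjustment over all genes tested at 0.05. The study calls its samples biologically independent without saying what was repeated (cultures, passages or clones), so p-values cover only the spread between the 2 samples of each group. Isoform ratios were compared with exact two-sided permutation tests (Python 3.11.15). The script was tested on simulated data. The design carried no replicate block; alternative pseudocounts (0.1 and 5), filters, scalings, replicate blocks, a fit of the compared groups alone, a fit without trend, omission of each sample and subtraction of chromosome medians were run, and the midpoint of each deposited interval was added after seeing the data. Between 17.2% and 21.7% of FPKM values above 10 exceeded their own deposited upper bound.

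All 10 genes were named in every comparison, with Pcgf5 as the check of the labels. From each related list at most 4 genes per comparison were named, those with the largest change among genes that passed with separate samples. Named besides were paralogs at the same step, the genes most alike by Pearson r and some genes whose call changed under an alternative. The genes and lists were chosen with earlier results of these data known. Gene positions are those of the files, counted from 1, with strand from GENCODE vM1 (NCBIM37, the same assembly as mm9). Protein sequences were not used here.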

Additional observations from a re-analysis of the deposited data

Results flagged for a closer look

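The difference of the day change between genotypes passed the test for Ldhb, at 1.74 on the log2 scale (Pcgf5-/- minus wild type, limma adjusted p = 0.0439), with 2 samples in each group. The call was not held in any of the 8 fits that left out 1 sample. For Eno2, both day 6 samples were above both day 0 samples in wild type and below them in Pcgf5-/- cells, a difference of -1.23 that did not pass (adjusted p = 0.0788), at levels between 0.9497 and 2.84 FPKM. Eno2 and Ldhb both lie on chromosome 6. What lies behind either pattern was not tested.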

How the results depend on the processing

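With 1 sample left out, 46 of 48 isoform ratio differences kept their direction and 28 of 40 counts stayed within 1.5 times. Under the other alternatives 521 of 555 member changes kept direction and side of the threshold. The labels do not say what a replicate number shares. The paper computed fold changes between knockout and wild type samples that it calls paired, without saying what was paired. Within a day, same-numbered samples of the genotypes deviated together (r = 0.10 at day 0 and 0.39 at day 6), and across days r was between -0.08 and -0.02. With a replicate block, 5 genes differed between genotypes at day 6 (Slc2a1 and Slc2a3 added). In the difference of the day change that block gave Pfkp in place of Ldhb. With a replicate block for each day 6 did at day 6 (Aldoc added as well, adjusted p = 0.0106), 1 at day 0 (Slc2a3, adjusted p = 0.0487) and 2 in the difference of the day change (Ldhb and Pfkp), and the wild type fall of Aldoc passed (adjusted p = 0.00518). The Pcgf5-/- fall of Eno2 was lost with either block (adjusted p = 0.0611 and 0.0634), with either other pseudocount, without a filter and in the fit of the compared groups alone (0.0524 to 0.0864). That fit gave 5 genes at day 6 (Slc2a1, Slc2a3 and Aldoc added, Hk2 lost). The difference of the day change was called for 0 genes without a filter or without a trend, and for 2 (Ldhb and Pfkp) under quantile normalization, median scaling or interval midpoints.

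With 1 sample left out, the number called was 6 to 8 for the day change in wild type, 4 to 7 in Pcgf5-/- cells, 0 to 0 for genotype at day 0, 1 to 3 at day 6, and 0 to 1 for the difference of the day change. The count in Pcgf5-/- cells was 4 without replicate 1 of Pcgf5-/- day 0 or replicate 2 of Pcgf5-/- day 6, and 5 without replicate 1 of Pcgf5-/- day 6. Calls of the day change lost in this way, besides those given with Eno2 and Pgk1, were in wild type Slc2a3 (a fall of 0.59 without day 0 replicate 1 and 0.67 without day 6 replicate 2, adjusted p = 0.0525 and 0.0529) and Slc2a1 (0.73 without day 0 replicate 2 and 1.04 without day 6 replicate 1, adjusted p = 0.0807 and 0.0569). In Pcgf5-/- cells they were Slc2a3 (falls of 0.61 and 0.75, adjusted p = 0.0684 and 0.0584) and Hk1 (falls of 1.04 and 1.17, adjusted p = 0.0569 and 0.0543) without day 0 replicate 1 or day 6 replicate 2, and Slc2a1 (1.22, adjusted p = 0.0575) without day 6 replicate 1.

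Reversed signs were found for small differences. At day 0 between genotypes, Aldoc was at -0.00 (-0.0043) after subtraction of the chromosome median, and with 1 sample left out Aldoc ranged from -0.34 to 1.29, Pgk1 from -0.47 to 0.19, Ldha from -0.32 to 0.048 and Ldhb from -0.31 to 0.10. In the day change of Pcgf5-/- cells Aldoc ranged from -1.11 to 0.52 and Ldhb from -0.065 to 0.61. In the difference of the day change Slc2a3 was at 0.13 under median scaling and ranged from -0.26 to 0.16, Slc2a1 from -0.12 to 0.61, Aldoc from -0.18 to 1.45 and Pgk1 from -0.32 to 0.34. Among the ratios at day 0 between genotypes, Slc2a3/Slc2a1 ranged from -0.041 to 0.36 and Ldhb/Ldha from -0.068 to 0.13. Where no construction of the fit shows it, the cause was not tested. With 2 samples a group and no counts, the precision of low genes such as Eno2 could not be set.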
